A study of Drosophila melanogaster with 6 samples.

Results

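The polyol pathway of adult Drosophila melanogaster was followed through 9 genes, the sorbitol dehydrogenases Sodh-1 and Sodh-2 and 7 aldo-keto reductases (CG6084, CG10638, CG9436, CG10863, CG12766, CG2767 and CG6083), out of 13035 genes in the deposited RNA-seq table. Each was found by its symbol in that table, and all 9 were present. The genes were chosen by their enzyme family with the control and mutant levels of these same libraries in view, so their differences between groups are given here as descriptions. Poly(A) RNA of whole male flies was sequenced in 3 control and 3 dERR mutant libraries at day 6 of adult life. All flies carried yw, hsFLP and the conditional allele dERR[conditional] over dERR2. The dERR mutant flies, labelled dERR-/-, had been heated for 1 h on days 5 and 6 AEL (after egg laying), which switches on the heat-inducible FLP recombinase, and control flies were never heated. Heat exposure and loss of dERR therefore cannot be told apart in this design, and the controls themselves carry a dERR2 chromosome. The labels do not say whether the libraries of a group come from separate cultures of flies, so the spread between them may be partly technical.

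In the polyol pathway an aldose reductase first turns glucose into sorbitol with NADPH, and sorbitol dehydrogenase then turns sorbitol into fructose with NAD+. Aldose reductases belong to the aldo-keto reductases, a large enzyme family that reduces many aldehydes and ketones besides sugars. In flies the pathway has been linked to the sensing of dietary sugar through the transcription factor pair Mondo and Mlx. CG6084 is now named Akr1B, after the mammalian aldose reductase class.

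The targeted gene checked the labels. ERR had 107 to 119 normalized counts in the mutant and 373 to 539 in the control libraries. The libraries held 13987814 to 16102936 reads assigned to genes, and the lowest value of any of the 9 genes in any library was 56.7 normalized counts. Normalized counts are reads divided by the authors' size factor for the library. Scaling matters for the sign of small changes: of all genes past an adjusted p of 0.05 (limma), 33.3% were higher in the mutant with the authors' size factors, 46.0% after quantile normalization, 56.6% after equalizing library totals and 9.05% when ribosomal protein genes set the scale. That last setting shifted the median log2 change of all genes by -0.16.

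Sodh-1 (current symbol Sodh1; FBgn0024289; chromosome arm 3R, 2878057 to 2880264, plus strand, dm3) was far lower in the mutant flies. Control libraries held 3665, 3546 and 4608 normalized counts of it, whereas mutant libraries held 155, 107 and 113. Every mutant library lay far below every control library. The group means were 3940 ± 582 in control and 125 ± 25.7 in mutant (SD, n = 3 each), a 31.5-fold lower level that left 3.18% of the control mean. On the log2(normalized count + 1) scale the difference was -4.97 ± 0.14 (SE). Of all 13035 genes, Lsp2 alone, a larval serum protein gene, had a more negative log2 change (-5.61 ± 0.34). In the authors' deposited table Sodh-1 ranks 1 by p-value, with a maximum likelihood log2 fold change of -4.98.

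Sodh-2 (Sodh2; FBgn0022359; 3R, 6702106 to 6703979, plus strand, dm3), the second sorbitol dehydrogenase, differed little between the groups. It had 475, 449 and 436 normalized counts in control and 427, 377 and 362 in mutant libraries. The groups did not overlap, but the highest mutant library came close to the lowest control library. Means were 453 ± 19.8 in control and 389 ± 33.8 in mutant flies (SD, n = 3 each), which leaves 85.7% of the control mean. Its log2 change was -0.22 ± 0.09 (SE), with a 95% interval of -0.42 to -0.03 before any adjustment for the number of genes, and it missed the threshold of an adjusted p of 0.05 (limma). With ribosomal protein genes as the scale it passed, at -0.38. The opposite-strand gene CG14695 overlaps it by 54 bases and had 6.75% of its normalized counts.

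Per kilobase of coding length, Sodh-1 was the more abundant of the pair Sodh-1 and Sodh-2 in control flies and the less abundant in mutant flies. In control libraries it made up 88.5, 88.8 and 91.4% of the summed level of both genes, against 26.6, 22.2 and 23.8% in mutant libraries. The level of Sodh-1 stood 8.73 ± 1.60 times above that of Sodh-2 in control, and the level of Sodh-2 stood 3.15 ± 0.38 times above that of Sodh-1 in mutant (SD, n = 3 each). Both genes have a coding length of 1080 bases. The summed level of this pair went from 4068 ± 526 in control to 476 ± 54.3 in mutant flies, in normalized counts per kb (SD, n = 3 each). Most of what remained of that sum came from Sodh-2. Whether reads of these paralogs were assigned to the wrong copy could not be checked from the deposited values. The sum is not that of the whole family. It leaves out the relative CG4836, described below, for which no coding length was available. CG4836 had 54736 ± 5305 normalized counts in control and 60122 ± 1402 in mutant flies (SD, n = 3 each), far more than Sodh-1 or Sodh-2.

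**Figure D1:**
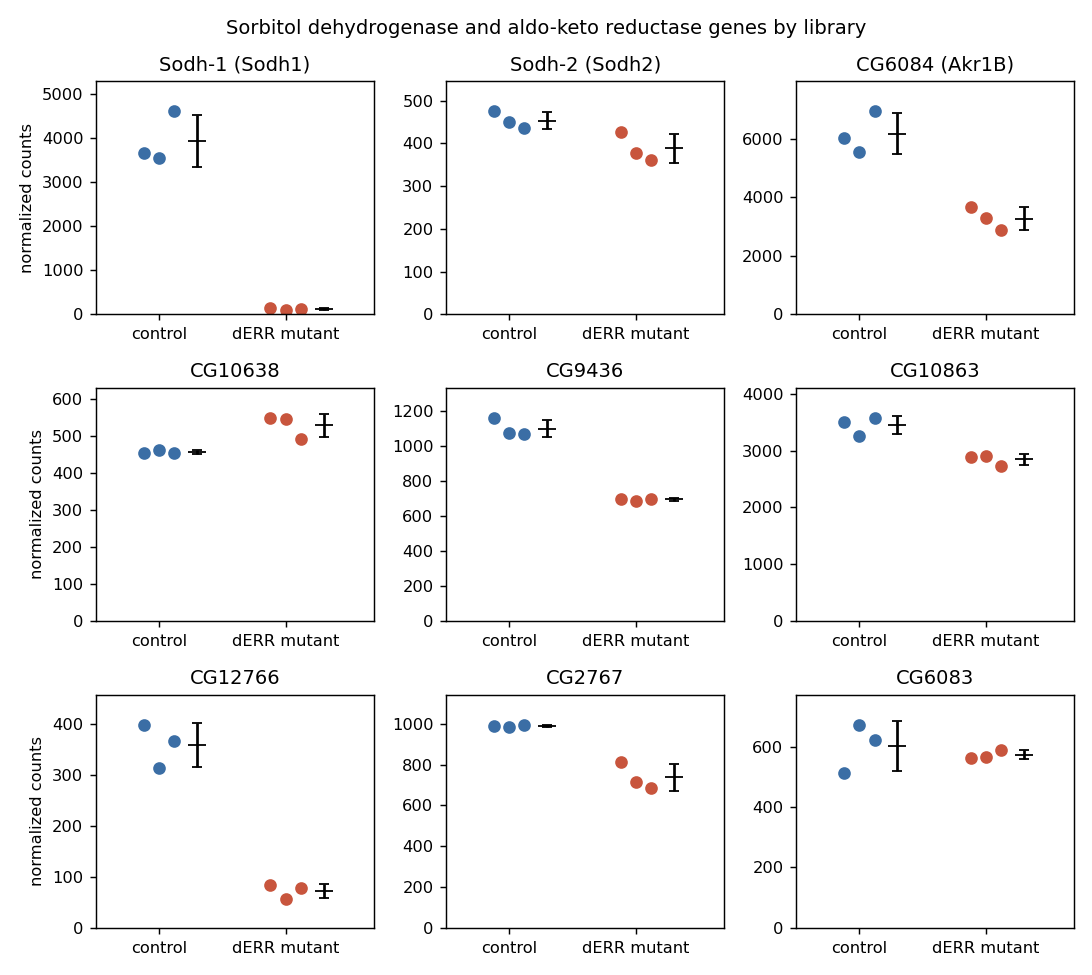
Normalized counts (vertical axes, each starting at 0) of the 9 genes in the 3 control (blue) and 3 dERR mutant (red) libraries, with the group mean and SD in black. Sodh-1 dropped from 3546 to 4608 normalized counts in control to 107 to 155 in mutant libraries, while CG6083 overlapped between groups.

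CG6084 (Akr1B; FBgn0086254; 3L, 11613635 to 11617481, minus strand, dm3), the closest of the 7 reductases by name to the enzyme of the first polyol step, was lower in the mutant. It had 6042, 5548 and 6941 normalized counts in control and 3658, 3305 and 2872 in mutant libraries. All 3 mutant libraries lay below all 3 control libraries. Means were 6177 ± 707 in control and 3279 ± 393 in mutant flies (SD, n = 3 each), so 53.1% of the control mean was left. Its log2 change was -0.91 ± 0.11 (SE). The annotation used for lengths holds 4 coding transcripts of this gene, which the gene-level counts do not separate.

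CG12766 (FBgn0035476; 3L, 3938624 to 3940125, minus strand, dm3) had the largest relative difference among the reductases. Its control libraries held 397, 312 and 366 normalized counts and its mutant libraries 83.2, 56.7 and 77.6. The groups were separated by a wide gap. Means were 358 ± 43.0 in control and 72.5 ± 14.0 in mutant flies (SD, n = 3 each), a 4.94-fold lower level in the mutant and a log2 change of -2.30 ± 0.15 (SE). By log2 change it stood in place 26 from the bottom of all 13035 genes, where Sodh-1 stood in place 2.

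CG9436 (FBgn0033101; 2R, 2645106 to 2646404, minus strand, dm3) had 1160, 1076 and 1068 normalized counts in control and 700, 688 and 701 in mutant libraries. The mutant libraries were close to each other and well below the control libraries. The mean dropped from 1102 ± 51.0 to 696 ± 7.01 (SD, n = 3 each), leaving 63.2%, and the fit gave a log2 change of -0.66 ± 0.07 (SE). CG2767 (FBgn0037537; 3R, 3831646 to 3833841, minus strand, dm3) had 990, 986 and 994 normalized counts in control and 812, 713 and 687 in mutant libraries. Here the control libraries were the tight group, and again no mutant library reached them. The mean went from 990 ± 3.81 to 737 ± 66.3 (SD, n = 3 each), with -0.43 ± 0.08 (SE) as its log2 change. CG2767 overlaps the opposite-strand gene CG2698 by 110 bases, and CG2698, with 210% of its normalized counts, had a log2 change of -0.01 ± 0.07. Part of the CG2767 counts is therefore uncertain if the counting did not use strand.

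CG10863 (FBgn0027552; 3L, 3941008 to 3942465, minus strand, dm3), the second most abundant reductase, was modestly lower. It had 3509, 3264 and 3568 normalized counts in control and 2893, 2907 and 2728 in mutant libraries. The groups did not overlap. Means were 3447 ± 161 in control and 2843 ± 99.5 in mutant flies (SD, n = 3 each), leaving 82.5%, with a log2 change of -0.28 ± 0.07 (SE). Its place past the adjusted p of 0.05 (limma) ended without control replicate 3, without dERR mutant replicate 1, without dERR mutant replicate 3, with library totals made equal and with quantile normalization. The antisense gene CR43916, with 0.162% of its normalized counts, overlaps it over 294 bases.

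CG10638 (FBgn0036290; 3L, 12491504 to 12494411, minus strand, dm3) was the single gene of the 9 with a higher mean in the mutant. It had 455, 463 and 454 normalized counts in control and 548, 546 and 492 in mutant libraries. Every mutant library lay above every control library. Means were 457 ± 4.98 in control and 529 ± 32.0 in mutant flies (SD, n = 3 each), 116% of control, with a log2 change of 0.21 ± 0.08 (SE; 95% interval 0.03 to 0.38). It missed the threshold of limma, passed it with library totals made equal (log2 change 0.29) and stood at 0.047 when ribosomal protein genes set the scale. The antisense gene CR43868, with 10.5% of its normalized counts, overlaps it over 1821 bases, so part of its counts is uncertain if the counting did not use strand.

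CG6083 (FBgn0036183; 3L, 11617628 to 11619225, minus strand, dm3) had 511, 671 and 623 normalized counts in control and 563, 567 and 590 in mutant libraries. All 3 mutant libraries fell inside the control range. Its log2 change of -0.06 ± 0.10 (SE) had a 95% interval of -0.28 to 0.16. The sign turned with library totals made equal (0.025) and without control replicate 2 (0.022).

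Of the 9 genes, 6 were past the adjusted p of 0.05 on the lower side (limma), where 9.47% of all genes were, and 0 on the higher side, where 4.73% were. In all 17 alternative settings Sodh-1, CG12766, CG6084, CG9436 and CG2767 stayed past the threshold. The mutant libraries lay wholly below the control libraries for 7 of the 9 genes, against 16.9% of all genes, and wholly above for 1, against 15.7%. The median log2 change was -0.43 over the 9 genes and 0.00 over all genes. Since the 9 were picked with this contrast known, these counts describe them and carry no test.

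**Figure D2:**
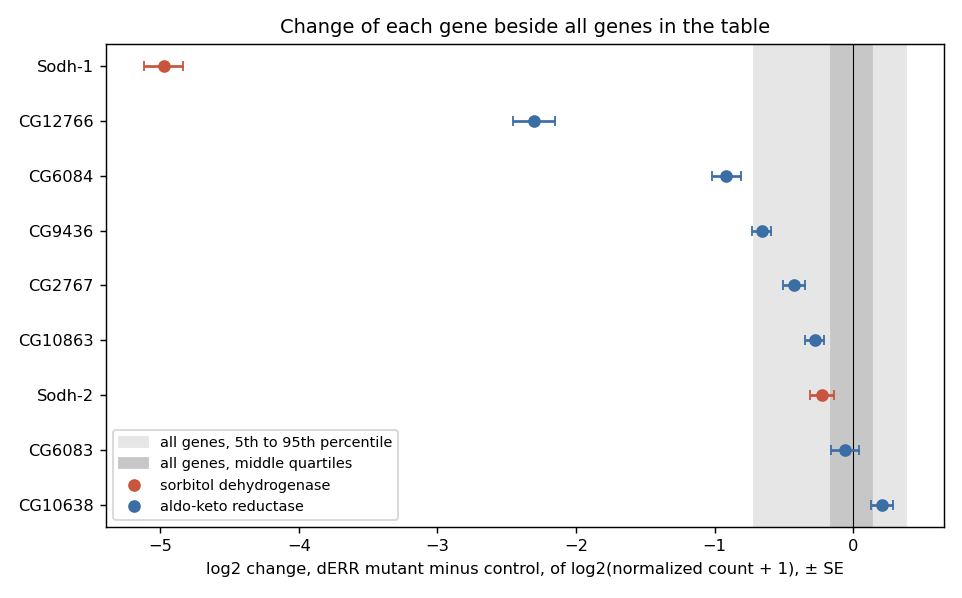
Log2 change (horizontal axis, dERR mutant minus control, ± SE) of the 9 genes, with the span from the 5th to the 95th percentile of all genes (-0.72 to 0.38) in light grey and the middle quartiles in darker grey. Sodh-1 (-4.97) and CG12766 (-2.30) lie far outside the grey span and CG6083 (-0.06) lies near its centre.

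Per kilobase of coding length the reductases spanned a wide range of levels. In control flies CG6084 came first with 5883 ± 673 normalized counts per kb, followed by CG10863 with 3636 ± 170 (SD, n = 3 each). CG9436 (1181 ± 54.6) and CG2767 (1003 ± 3.86) came next, and CG6083 (623 ± 85.1), CG10638 (481 ± 5.24) and CG12766 (373 ± 44.8) were lowest. Library ranges of these neighbours in the order were apart in control. With the sorbitol dehydrogenases included, Sodh-1 (3648 ± 539) overlapped CG10863 and Sodh-2 (420 ± 18.4) overlapped CG12766 in control. Sodh-1 dropped from place 2 to place 8 of the 9 genes in the mutant, at 116 ± 23.8, its range apart from those of Sodh-2 above it and CG12766 below it. In mutant flies CG6084 (3122 ± 375) and CG10863 (2999 ± 105) had overlapping ranges, as did CG9436 (746 ± 7.51) and CG2767 (747 ± 67.1). CG6083 (593 ± 15.3) and CG10638 (556 ± 33.6) did not overlap, and CG12766 stood apart at 75.5 ± 14.6 normalized counts per kb. Several places in this order depend on the length used. By annotated gene span CG10863 came first in both groups, and by exon length in the mutant. By gene span and by exon length CG10638 was lowest in control, with libraries at 156 to 159 and 186 to 189 normalized counts per kb, below CG12766 at 208 to 264 and 290 to 369. Sodh-1 held place 3 in control by exon length and place 8 in mutant flies by each of the 3 lengths.

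The summed level of the 7 reductases per kilobase went from 13180 ± 824 in control to 8839 ± 545 in mutant (SD, n = 3 each), 0.671 times the control level. The share of CG6084 in that sum was 43.8, 42.7 and 47.1% in the control and 37.2, 35.4 and 33.1% in the mutant libraries. The share of CG10863 was 28.2, 27.8 and 26.8% in control and 32.6, 34.5 and 34.8% in mutant libraries. These shares did not overlap between groups for either gene. Both sorbitol dehydrogenases together made up 23.5 ± 1.27% of the summed level of all 9 genes in control and 5.10 ± 0.32% in mutant flies (SD, n = 3 each).

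**Figure D3:**
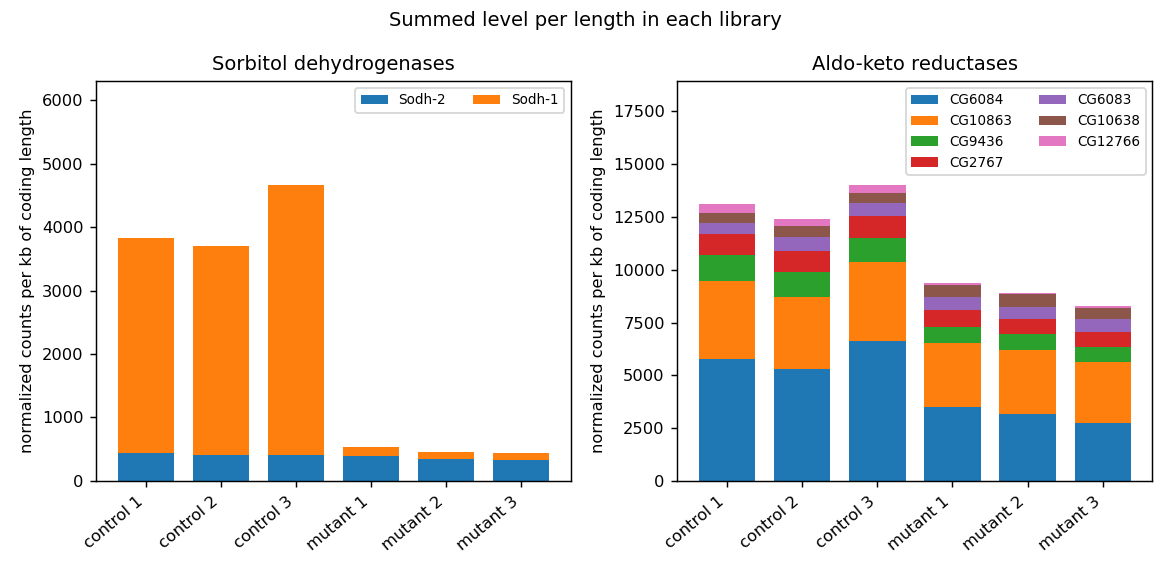
Stacked normalized counts per kb of coding length (vertical axes, starting at 0) in each of the 6 libraries, for the sorbitol dehydrogenases on the left and the aldo-keto reductases on the right. On the left the Sodh-1 part shrinks from 88.5 to 91.4% of the bar in control to 22.2 to 26.6% in mutant libraries. On the right the CG6084 part shrinks most in height.

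Neighbouring reductase genes differed unequally. CG12766 and CG10863 lie 882 bases apart on the minus strand of 3L, yet 20.2% of the control level was left of CG12766 and 82.5% of CG10863. Per kilobase, the level of CG10863 was 8.95, 10.6 and 9.88 times that of CG12766 in the control libraries and 35.2, 51.9 and 35.6 times in the mutant libraries. CG6084 and CG6083 lie 146 bases apart on the minus strand of 3L, with 53.1% left of CG6084 and 95.2% of CG6083. The level of CG6084 was 10.9, 7.60 and 10.2 times that of CG6083 in control libraries and 5.98, 5.37 and 4.48 times in mutant libraries. In neither pair did these ratios overlap between groups.

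Among libraries of a group, some stood at the edge for several of the 9 genes. Mutant library 1 was the highest mutant library for 6 genes, Sodh-1, Sodh-2, CG6084, CG10638, CG12766 and CG2767. Control library 3 was the highest control library for 4 genes, among them Sodh-1 and CG6084, and the lowest for 3. Control library 2 was the lowest control library for 5 genes, and mutant library 3 the lowest mutant library for 5. How often each library stands at the edge over all genes was not computed. Leaving out any 1 library moved the log2 change of Sodh-1 between -5.13 and -4.86, that of CG12766 between -2.41 and -2.14 and that of CG9436 between -0.68 and -0.62.

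Other genes of the same families, which are not among the 9, were listed by family membership after the data had been seen. A run of 3 aldo-keto reductase genes on 3R (CG18547, CG12224 and CG3397) fell together. CG18547 (FBgn0037973; 3R, 7804296 to 7806112, minus strand, dm3) had 695, 709 and 760 normalized counts in control and 337, 325 and 259 in mutant libraries. No mutant library came near the control range, and 42.5% of the control mean was left. The log2 change was -1.24 ± 0.11 (SE; adjusted p = 2.29e-05, limma). CG3397 (FBgn0037975; 3R, 7808820 to 7810263, minus strand, dm3) had 361, 365 and 403 normalized counts in control and 193, 185 and 170 in mutant libraries, a clear separation. Its log2 change was -1.04 ± 0.09 (SE; adjusted p = 3.44e-05, limma). CG12224 (FBgn0037974; 3R, 7806426 to 7807746, minus strand, dm3), which lies between them, had 151, 184 and 164 normalized counts in control and 94.9, 128 and 116 in mutant libraries. It fell by 0.56 ± 0.14 on the log2 scale (SE; adjusted p = 0.0186, limma), a call that ended without control replicate 2, without control replicate 3 and without dERR mutant replicate 1 (highest adjusted p = 0.0728, limma). The genes of this run lie 313 and 1073 bases apart, all on the minus strand.

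**Figure D4:**
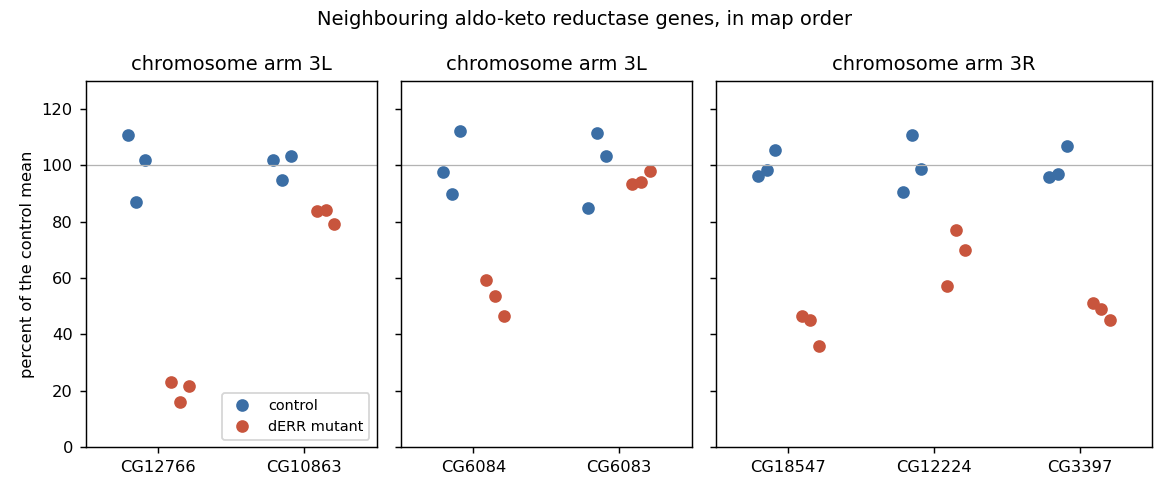
Level of neighbouring aldo-keto reductase genes in each library, as a percent of the gene's control mean (vertical axis), for the pairs on 3L and the run on 3R, with control in blue and dERR mutant in red. CG12766 and CG6084 sit well below their neighbours CG10863 and CG6083 in the mutant libraries, at 20.2% and 53.1% of control on average.

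The other listed relatives were not past the threshold. ARY, annotated as aldehyde reductase Y, had a log2 change of 0.10 ± 0.17 (SE) with overlapping groups, at 160 to 266 normalized counts in control and 227 to 256 in mutant libraries. Hk, a potassium channel beta subunit with an aldo-keto reductase fold, had a log2 change of -0.03 ± 0.14. CG4836, which has SODH-1 among its RefSeq synonyms, had 54736 ± 5305 normalized counts in control and 60122 ± 1402 in mutant flies (SD, n = 3 each). Its log2 change was 0.14 ± 0.11 (SE; 95% interval -0.10 to 0.38), and it was called higher with quantile normalization (adjusted p = 3.52e-03, limma). In all, 3 of these 6 genes fell and 0 rose, beside 9.47% and 4.73% of all genes. Their median log2 change was -0.30.

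Of 3 Mondo-Mlx sugar sensing genes 2 fell and 1 rose, beside 9.47% and 4.73% of all genes, with a list median of -0.31. Mio (now Mondo), the sugar-responsive partner, had 2094, 1949 and 2109 normalized counts in control and 1809, 1479 and 1694 in mutant libraries and fell by 0.31 ± 0.09 on the log2 scale (SE; adjusted p = 0.0339, limma). Its partner bigmax, the fly Mlx, had 294, 287 and 270 normalized counts in control and 339, 452 and 399 in mutant libraries and rose by 0.47 ± 0.11 (SE; adjusted p = 0.0139, limma). The downstream factor sug (sugarbabe) had 706, 568 and 550 normalized counts in control and 462, 467 and 442 in mutant libraries and fell by 0.40 ± 0.10 (SE; adjusted p = 0.0208, limma). None of the 3 overlapped between groups. Mio and sug lay wholly below the control libraries, as did 16.9% of all genes, and bigmax wholly above, as did 15.7%. Each call depended on the libraries or the scaling. That of Mio ended in 5 of 17 alternatives (library totals made equal and leaving out control replicate 1, control replicate 3, dERR mutant replicate 2 or dERR mutant replicate 3; highest adjusted p = 0.126, limma). That of bigmax ended in 3 (ribosomal protein genes as the scale and leaving out control replicate 3 or dERR mutant replicate 3; highest adjusted p = 0.0785, limma) and that of sug in 3 (library totals made equal and leaving out dERR mutant replicate 1 or dERR mutant replicate 3; highest adjusted p = 0.0785, limma).

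Genes for hexose entry and phosphorylation, which compete with the polyol pathway for glucose or use its fructose, were mostly not past the threshold. Of 12 measured, 3 fell and 0 rose, beside 9.47% and 4.73% of all genes, and the list median was 0.03. The hexokinase Hex-C fell from 1954 ± 132 to 1134 ± 101 normalized counts (SD, n = 3 each), by 0.79 ± 0.09 on the log2 scale (SE; adjusted p = 1.08e-04, limma). The sugar transporter sut1 had 964, 877 and 1155 normalized counts in control and 708, 689 and 683 in mutant libraries, and it fell by 0.52 ± 0.10 on the log2 scale (SE; adjusted p = 4.43e-03, limma). Hex-A was the third that fell, by 0.29 ± 0.07 (SE; adjusted p = 0.0255, limma), a call that ended in 6 of 17 alternatives (library totals made equal and leaving out any 1 library other than control 3; highest adjusted p = 0.0996, limma). Tret1-1, a trehalose transporter, had a log2 change of 0.02 ± 0.10, and the testis hexokinase Hex-t2 one of 0.20 ± 0.09.

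Of 5 measured enzymes that supply NADPH, the cofactor of aldose reductase, 4 fell and 0 rose, beside 9.47% and 4.73% of all genes, with a list median of -0.40. The number that fell was 2 with library totals made equal, with quantile normalization and with edgeR. Pgd, 6-phosphogluconate dehydrogenase, had 3025, 2597 and 3469 normalized counts in control and 1499, 1451 and 1381 in mutant libraries. Its log2 change was -1.06 ± 0.10 (SE; adjusted p = 4.25e-05, limma). Zw, glucose-6-phosphate dehydrogenase, fell from 1823 ± 122 to 936 ± 33.0 normalized counts (SD, n = 3 each), by 0.96 ± 0.08 on the log2 scale (SE; adjusted p = 1.26e-05, limma). The malic enzymes Men (-0.40 ± 0.12; adjusted p = 0.0492, limma) and Men-b (-0.34 ± 0.10; adjusted p = 0.0393, limma) lost their calls in 9 and 8 of 17 alternatives, in edgeR among them and without any 1 library other than dERR mutant replicate 1. The isocitrate dehydrogenase Idh was not past it, at -0.19 ± 0.09.

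**Figure D5:**
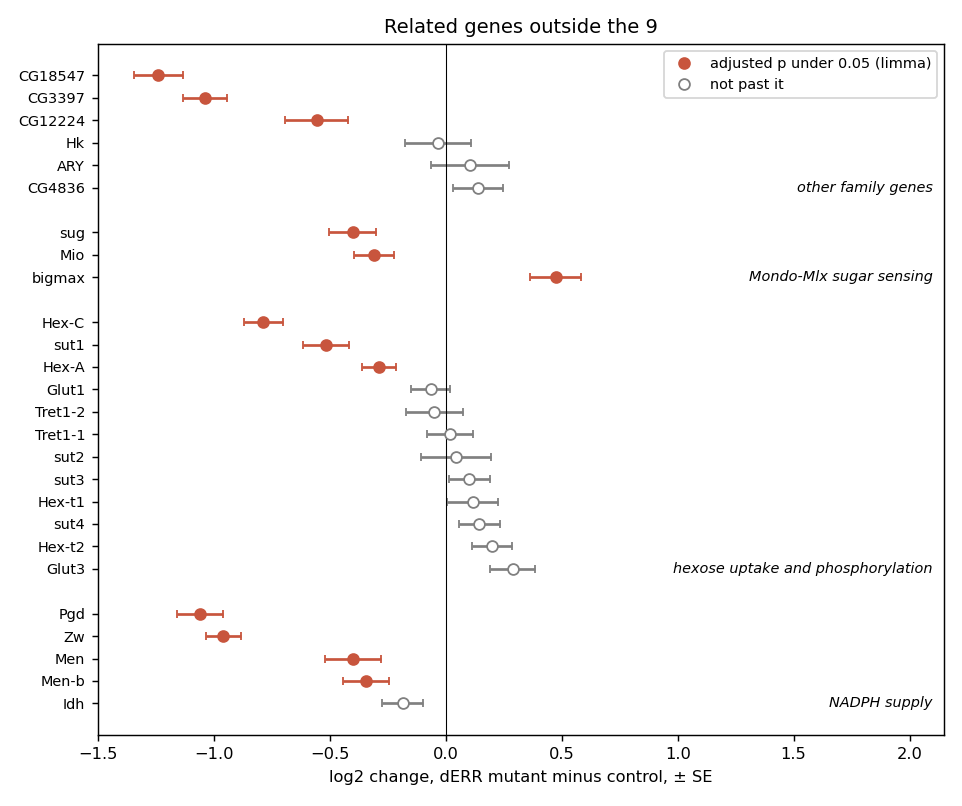
Log2 change (horizontal axis, dERR mutant minus control, ± SE) of family genes and pathway genes outside the 9, with filled points past an adjusted p of 0.05 (limma). CG18547 (-1.24), Pgd (-1.06) and CG3397 (-1.04) lie farthest to the left and bigmax (0.47) farthest to the right.

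The genes nearest in pattern were found by the distance between log2 profiles over the 6 libraries, each centred on its own mean, among 10081 genes with a mean of at least 100 normalized counts. For Sodh-1 these were Lsp2 (distance 1.28), Pepck (1.53), Acp54A1 (1.82), CG9914 (1.88) and CG15239 (2.04). All of them are genes with a large decrease, from a log2 change of -5.61 for Lsp2 to -3.43 for CG15239. For Sodh-2 they were Lim1, path, Hmgs, Muc11A and atl, at distances of 0.049 to 0.073. For CG6084 they were CR43417, CG4725, CG8249, CG15155 and Ser8, at distances of 0.12 to 0.18. With 6 libraries in 2 groups this measure mostly ranks genes by a similar difference between groups.

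Markers of tissues moved in the same libraries, and their part in the results above was not tested. The counts below stand beside 9.47% of all genes that fell and 4.73% that rose past an adjusted p of 0.05 (limma). Of 6 measured fat body markers 3 fell and 1 rose (summed normalized counts 71459 to 88275 in control and 44790 to 58079 in mutant libraries). Rfabg and CG3523 hold most of that sum. The Rfabg mean went from 35968 ± 1332 in control to 9514 ± 1793 in mutant flies, whereas CG3523 had 34894 ± 5609 and 35409 ± 4552 (SD, n = 3 each). All 9 accessory gland markers fell (summed counts 84262 to 102027 against 36867 to 41033), and 6 of 11 midgut markers fell while 2 rose (91913 to 96142 against 71396 to 88299). Of 8 flight muscle markers 7 rose (85812 to 100849 against 119456 to 140461). Of 10 testis markers (37912 to 44403 against 45301 to 51271) and 4 Malpighian tubule markers (3745 to 3855 against 3074 to 4040) 0 passed the threshold of limma. Of 8 photoreceptor markers 1 (Rh5) rose (108474 to 115364 against 99401 to 108490), and of 7 measured heat shock genes 1 (Hsp22) rose (26582 to 27601 against 27457 to 29067). The yolk protein genes Yp1, Yp2 and Yp3 summed to only 182 to 211 normalized counts in control and 89.1 to 140 in mutant libraries, and Yp3 fell, as a check of the male label. No measured marker was at 0 in all libraries. In RNA of whole flies, fewer cells of a type and less RNA per cell cannot be told apart for any of the 9 genes.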

How the data were processed

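Per the submitters' processing notes, Novoalign and DESeq2 were used with the build dm3, and no version is named. Not given in the sources used here are the read counter, its strand setting and its annotation. The libraries were stranded, per the labels' protocols. The authors deposited a table of 13035 genes whose library columns hold a signal, normalized counts. Dividing the values of a library by its smallest step gave whole reads for 100% of them (tolerance 1e-06). The deposited table also holds the authors' baseMean, log2 fold changes, test score, p-value and adjusted p-value.

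Differences were fitted here with limma 3.58.1 (limma-trend, R 4.3.3) on log2(normalized count + 1), with 6 libraries, a group term only and no filter, and adjusted by Benjamini-Hochberg over all 13035 genes (threshold 0.05). Fold changes on this scale understate changes of genes with few reads. Alternatives were other scalings, pseudocounts, a filter, a robust prior, edgeR 4.0.16 and DESeq2 1.42.0 on the recovered reads, and leaving out each library. The method was also run on simulated counts that had the same dispersion for every gene. That setting is simpler than these libraries, so the run does not show the error rate here. Within groups, chi-square per gene between 2 libraries was 7.13 to 13.7, where sampling alone gives 1, so none was treated as a library deposited more than once. This does not show that the libraries come from separate cultures. Intervals assume that libraries are independent.

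Starts in the deposited coordinates are counted from 0. They were raised by 1, after which 1084 of 2404 genes on arm 2L matched the reference annotation exactly, against 7 without. Coding lengths are those of the longest coding sequence in an Ensembl annotation of dm6, used only for lengths, strands and names. Current symbols were found for 12526 of 13035 identifiers. The planned search for relatives by protein sequence was not run, because no sequences were used here, and a list by family membership replaced it. Genes are named by rule: the 9 members, their relatives, list genes past the threshold with the most abundant others, the 5 nearest genes in pattern, and ERR. The members and all lists were chosen with earlier results of these data known. Python 3.11.15 with pandas 2.3.3, numpy 2.4.6 and, for the plots, matplotlib 3.10.9 was used.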

Additional observations from a re-analysis of the deposited data

How the results depend on the processing

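Of 153 recomputed log2 changes of the 9 genes (17 alternatives each), 141 moved by less than the SD between replicates, 10 moved further and 2 turned sign, both for CG6083 (0.025 with scaling to library size and 0.022 without control replicate 2; -0.17 to 0.022 without any 1 library). Of all genes, 1293 were called higher with scaling to library size, and ribosomal protein genes as the scale gave 2069 lower and 206 higher, against 1234 lower and 617 higher with the authors' size factors. With 1 library left out the number higher ran from 330 to 563 and the number lower from 926 to 1139. With scaling to library size 1 of the 9 genes (CG10638) was called higher, 0 Mondo-Mlx genes lower, 1 hexose gene higher and 2 NADPH genes lower. Upper-quartile scaling called 1 hexose gene higher, and quantile normalization 1 hexose gene and 1 relative (CG4836) higher and 2 NADPH genes lower. Ribosomal scaling called 0 Mondo-Mlx genes higher, and edgeR 2 NADPH genes lower. On the recovered reads edgeR called 1834 genes and DESeq2 1758. Without 1 library, 0 to 2 Mondo-Mlx genes were called lower and 0 to 1 higher, and 2 to 4 NADPH genes lower. The cause of these shifts was not tested. Control levels per length moved by more than the SD between replicates for all 9 genes by gene span and for 8 by exon length (chosen after the data were seen), the exception being CG12766. Both lengths exceed the coding length for each of the 9 genes, so these levels had to drop. Such moves say nothing on how firm the levels are, and only the order and shares of the genes can differ by length. Median-of-ratios scaling was also added after the data were seen. Relatives by other identity thresholds were not run, since the search itself was not. No paired analysis was possible because the labels give no pairing and the replicate numbers only name libraries. With 3 libraries a group, the 95% interval of the CG6083 log2 change (-0.28 to 0.16) spans both signs. The smallest difference that could be detected was not computed.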
